A study of Homo sapiens with 3 samples.

Results

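The fibroblast growth factor (FGF) genes examined here were the ligands FGF1, FGF2 and FGF5, the signaling receptors FGFR1, FGFR2, FGFR3 and FGFR4, and the receptor-like gene FGFRL1. They were taken by gene symbol from the count file of A375, an established cell line from a human melanoma with mutant BRAF, and made up 8 of its 58037 genes. The 3 libraries came from cells in serum-free DMEM (control), or in the medium that young (YA-A375) or old (OA-A375) human adipocytes had conditioned, called secretome, for 24 h per the series description, although the labels' protocol also allows for longer. Each group was 1 library, so every difference below lacks a replicate check and no p-value was computed. The adipocytes had been differentiated in culture from subcutaneous preadipocytes of donors, and how many donors stood behind each secretome was not given in the sources used here. All 3 cultures shared the cell line, a wash before treatment and the absence of added serum. The control, YA and OA libraries held 21448195, 21306558 and 18089008 counts.

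FGF ligands bind receptor tyrosine kinases together with heparan sulfate on cell surface proteoglycans, and the paired receptors then signal through the adaptor FRS2 to the RAS-ERK and PI3K-AKT cascades. FGF2 is known as an autocrine growth factor of melanoma cells, and FGFR1 is one of its receptors there. Like FGF1, FGF2 lacks a classical signal peptide, whereas FGF5 is secreted by the usual route. FGFRL1 binds FGF ligands but has no tyrosine kinase domain.

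The regions upstream of the outermost RefSeq start of FGF5 and of FGF1 are shown because these were the ligands with the largest differences between libraries. Each is 250 bases of GRCh38.p14 printed 5′ to 3′ on the strand of the gene, and capitals mark any match to a searched motif. FGF5 lies on chromosome 4 (plus strand, chr4:80266338-80266587), and FGF1 on chromosome 5 (minus strand, chr5:142698071-142698320).
FGF5: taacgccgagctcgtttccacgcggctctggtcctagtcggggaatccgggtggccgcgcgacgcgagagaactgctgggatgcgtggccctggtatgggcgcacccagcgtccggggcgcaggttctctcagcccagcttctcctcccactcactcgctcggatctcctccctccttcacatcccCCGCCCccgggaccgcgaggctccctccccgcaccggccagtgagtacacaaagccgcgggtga
FGF1: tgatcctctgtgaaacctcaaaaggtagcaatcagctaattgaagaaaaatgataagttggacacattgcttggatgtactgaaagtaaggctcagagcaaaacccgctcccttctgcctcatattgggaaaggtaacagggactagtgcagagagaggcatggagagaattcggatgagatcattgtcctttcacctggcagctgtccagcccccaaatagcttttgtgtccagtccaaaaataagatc
The motifs were the AP-1 site TGANTCA, the CRE TGACGTCA, the GC box GGGCGG, the TATA box TATAAA, the ETS site CGGAAG and the NF-kB site, each on both strands. The FGF5 window held 1 GC box, which overlapped no other match, and was 68.8% G and C, and the FGF1 window held no match and was 44.8% G and C. Among all 35116 RefSeq start windows of that length, 42.6% held a GC box, 10.7% a TATA box, 6.57% an AP-1 site, 1.65% a CRE, 16.5% an ETS site and 9.96% an NF-kB site. FGF1 and FGF5 have further annotated starts, and gene counts do not show which start was used.

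Levels of different genes were set side by side as CPM (counts scaled to a common library total) per kilobase of merged exon, with intervals that cover counting error only. In control, FGFRL1 stood highest among the 8 genes at 36.8 (95% interval 35.6 to 38.1), which placed it above 93.1% of the protein-coding genes with a count. FGFR1 followed at 3.597 (3.38 to 3.82), FGF2 at 3.200 (2.92 to 3.50) and FGFR4 at 2.88 (2.56 to 3.22), and each of these overlapped its neighbor. FGFR3 at 2.16 (1.89 to 2.47) and FGF1 at 1.47 (1.25 to 1.71) were lower, with no overlap between them or with FGFR4. FGF5 was at 0.155 (0.0950 to 0.240) and FGFR2 at 0.0369 (0.0135 to 0.0803). FGFR1 is the entry most sensitive to the length used, because its merged exons span 13842 bases and its longest transcript 6216. With the longest transcript as the length, its control level was 8.01, still below FGFRL1 at 41.9, and FGFR4 at 4.45 then stood above FGF2.

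Fold changes were ratios of counts divided by DESeq2 size factors, and a gene was called at 1.2-fold, the study's cutoff read as a linear fold, if its mean normalized count over the 3 libraries was at least 20. Of the 8 genes, 7 passed that filter. FGFR2 did not, with counts of 6, 9 and 5 in the order control, YA, OA, which is too few for a fold change (YA against control 1.504, interval 0.478 to 5.14). FGF5 passed on a mean of 29.05 that its level in OA carried, since control and YA were both under 20.

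**Figure D1:**
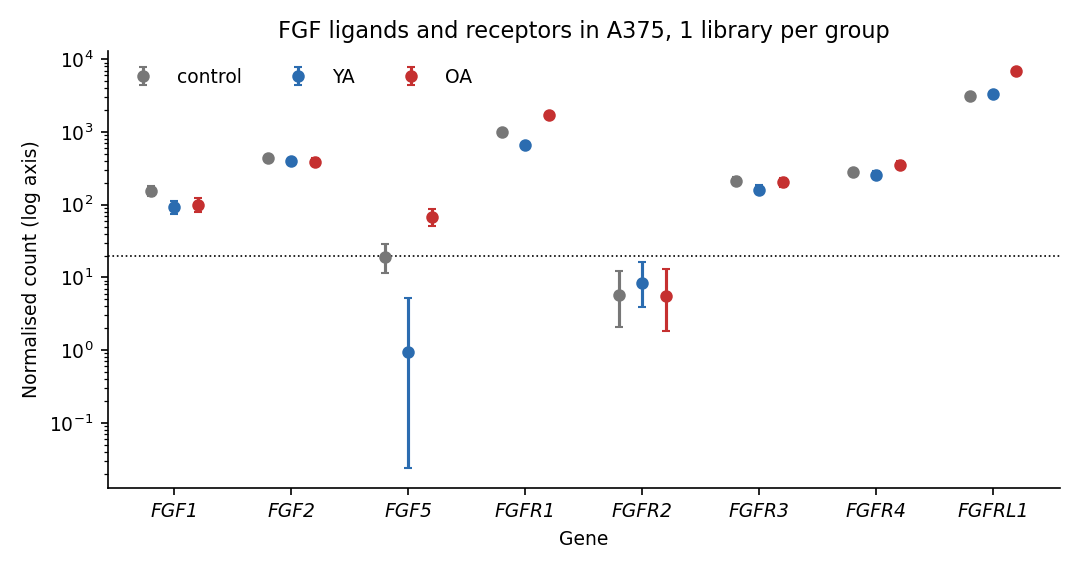
Normalized counts (log axis) of the 8 FGF genes in the control, YA and OA libraries, with 95% Poisson intervals as bars and the filter of 20 as a dotted line. FGFRL1, FGFR1 and FGF5 stood highest in OA, FGF5 was at 1 raw count in YA, and FGFR2 lay under the filter in all 3 libraries.

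Among the ligands, FGF5 differed most. FGF5 (ENSG00000138675.16; GRCh38 chromosome 4, 80266599 to 80336680), a ligand best known for ending the growth phase of hair follicles, had 20 (control), 1 (YA) and 60 (OA) counts. YA was therefore nearly without FGF5 reads, and OA had the most. The ratio of normalized counts was 0.0501 in YA against control (interval 0.00121 to 0.314), 3.57 in OA against control (2.12 to 6.26) and 0.0140 in YA against OA (0.000350 to 0.0812). In each of these comparisons the interval lay wholly beyond 1.2-fold. Of its 5998 exon bases, 136 are shared with CFAP299 on the same strand, which had 0, 0 and 4 counts.

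FGF1 (ENSG00000113578.17; chromosome 5, 142592178 to 142698070), which can bind all 4 signaling receptors, had 166 (control), 98 (YA) and 89 (OA) counts. Both secretome libraries were below control. FGF1 was 1.69-fold lower in YA (interval 1.31 to 2.19) and 1.57-fold lower in OA (1.203 to 2.05), and YA and OA stood at a ratio of 0.927 (0.689 to 1.25).

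FGF2 (ENSG00000138685.12; chromosome 4, 122826708 to 122898236) had 465 (control), 426 (YA) and 349 (OA) counts. After scaling for depth these were 438, 403 and 392 normalized counts. The ratio was 0.919 in YA (0.804 to 1.05), 0.894 in OA (0.776 to 1.03) and 1.03 between YA and OA (0.890 to 1.19), so no difference was detectable at this depth. Of its exon bases, 11.9% lie opposite exons of NUDT6, a gene transcribed from the other strand, which had 65, 64 and 66 counts. The strand setting of the counting was not given in the sources used here, so reads of this stretch cannot be assigned with certainty.

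The makeup of the ligand reads also differed between libraries. Of the reads of the 3 ligands, FGF2 took 71.4% (control, Wilson interval 67.8 to 74.8), 81.1% (YA, 77.6 to 84.3) and 70.1% (OA, 65.9 to 73.9). FGF5 took 3.07% (control, 2.00 to 4.70), 0.190% (YA, 0.0336 to 1.07) and 12.05% (OA, 9.48 to 15.2). Per kilobase, the 3 ligands together were at 4.82, 3.83 and 4.33 in the 3 libraries.

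Among the receptors, FGFR1 was lower in YA and higher in OA than in control. FGFR1 (ENSG00000077782.19) had 1068 (control), 705 (YA) and 1543 (OA) counts. The gene was 1.51-fold lower in YA than in control (interval 1.37 to 1.66), 1.72-fold higher in OA than in control (1.59 to 1.86) and 2.60-fold lower in YA than in OA (2.38 to 2.85). The opposite-strand genes LETM2 (109, 116 and 105 counts) and AC087623.1 (0, 3 and 1) share 0.997% and 1.13% of its exon bases.

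FGFRL1 (ENSG00000127418.14; chromosome 4, 1009936 to 1026897) had 3273 (control), 3583 (YA) and 6078 (OA) counts, the last in the smallest library. This gene was 2.21-fold higher in OA than in control (2.12 to 2.31) and 2.01-fold lower in YA than in OA (1.93 to 2.10), while YA and control stood at a ratio of 1.098 (1.05 to 1.15). Its level per kilobase in OA, 81.1, lay above that of 97.2% of protein-coding genes with a count.

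FGFR4 (ENSG00000160867.14; chromosome 5, 177086886 to 177098144), known as the receptor of the hormone-like ligand FGF19, had 298 (control), 273 (YA) and 317 (OA) counts. OA was the highest of the 3 after scaling. The ratio was 0.919 in YA (0.777 to 1.09) and 1.27 in OA (1.08 to 1.49), and YA was 1.38-fold lower than OA (1.17 to 1.63). FGFR3 (ENSG00000068078.17; chromosome 4, 1793293 to 1808872), a receptor best known for restraining bone growth, had 225, 171 and 182 counts in the same order. It was lowest in YA, 1.31-fold under control (1.07 to 1.61) and 1.26-fold under OA (1.02 to 1.57). OA and control stood at a ratio of 0.964 (0.788 to 1.18). FGFR2 (ENSG00000066468.21; chromosome 10, 121478334 to 121598458), a receptor whose splice forms include an epithelial one, is described above.

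**Figure D2:**
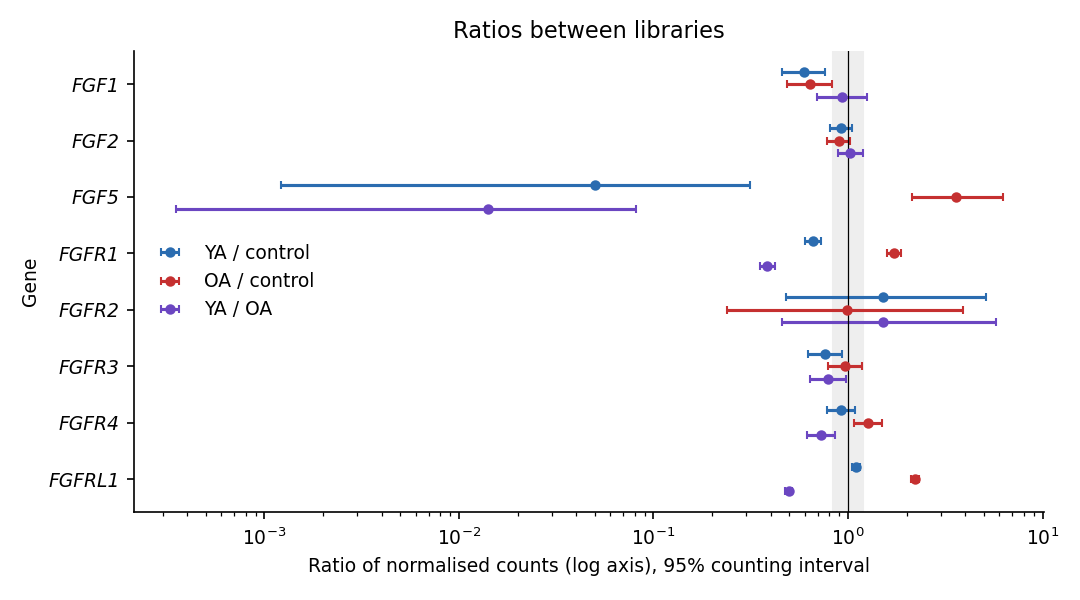
Ratios of normalized counts (log axis) of the 8 FGF genes for YA over control, OA over control and YA over OA, with 95% counting intervals as bars. The gray band spans 1.2-fold either way, and FGFR1, FGFRL1 and FGF5 in YA over OA lie wholly to its left.

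FGFR1 also took a different share of the reads of the 4 signaling receptors in each library. The share was 66.9% (control, Wilson interval 64.5 to 69.1), 60.9% (YA, 58.0 to 63.7) and 75.4% (OA, 73.5 to 77.2), and these intervals did not overlap. FGFR4 took 18.7% (16.8 to 20.6), 23.6% (21.2 to 26.1) and 15.5% (14.0 to 17.1), and FGFR3 took 14.1% (12.5 to 15.9), 14.8% (12.8 to 16.9) and 8.89% (7.73 to 10.2). Shares of reads favor long genes. Per kilobase of merged exon FGFR1 held 41.5%, 35.4% and 51.8% of the receptor level, and in YA FGFR4 stood above it at 39.3%. That order in YA was reversed with the longest transcript as the length, where FGFR1 was at 5.32 and FGFR4 at 4.10. For each FGFR1 read there were 3.06 FGFRL1 reads (2.86 to 3.29) in the control library, 5.08 (4.69 to 5.52) in the YA library and 3.94 (3.72 to 4.17) in the OA library.

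**Figure D3:**
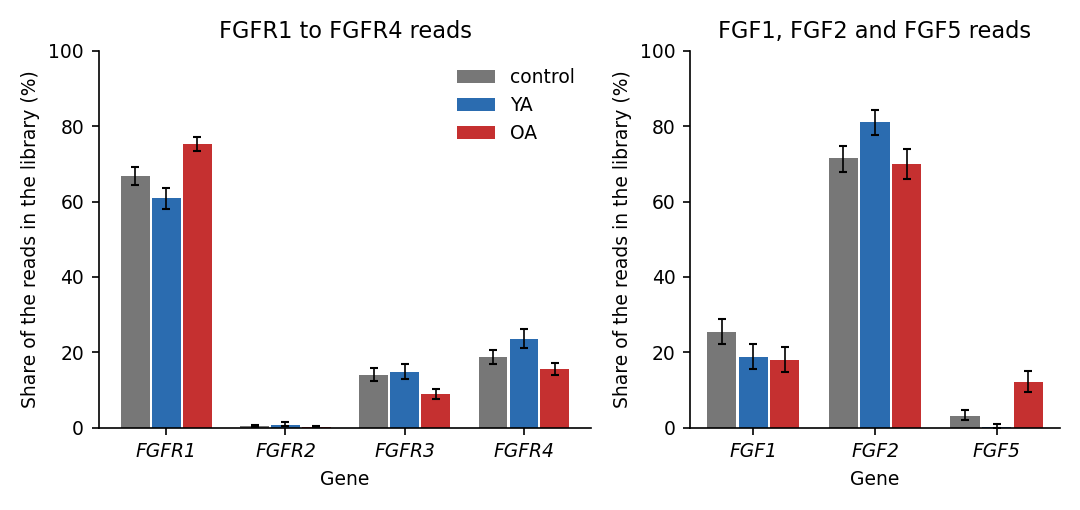
Share of reads (%) taken by each gene among FGFR1 to FGFR4 (left) and among FGF1, FGF2 and FGF5 (right) in the control, YA and OA libraries, with 95% Wilson intervals as bars. FGFR1 ranged from 60.9% in YA to 75.4% in OA, and FGF5 from 0.190% in YA to 12.05% in OA.

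Counted over the group, YA against control had 0 of 7 FGF genes at least 1.2-fold higher and 4 lower (FGF1, FGF5, FGFR1 and FGFR3), where 17.4% of all 14413 genes tested were higher and 16.4% lower (33.8% together). Their median log2 fold change was -0.39, beside -0.02 over all genes. OA against control had 4 higher (FGF5, FGFR1, FGFR4 and FGFRL1) and 1 lower (FGF1), where 21.1% of all genes were higher and 21.5% lower, 42.6% together, with medians of 0.34 and 0.01. YA against OA had 0 higher and 5 lower (FGF5, FGFR1, FGFR3, FGFR4 and FGFRL1), where 23.0% of all genes were higher and 21.5% lower, 44.5% together, with medians of -0.46 and -0.01. FGF5 entered these counts and medians through its level in OA, where it was high, so its calls against OA and in OA are in part set by the filter. Without it, at a minimum mean of 100, 6 genes were left, of which 3 were lower in YA than in control (median -0.26), 3 higher and 1 lower in OA than in control (0.14) and 4 lower in YA than in OA (-0.40). Of all 11162 genes at that setting, 1404 were higher and 1451 lower in YA than in control. In OA 2035 were higher and 1947 lower than in control, and against OA, YA had 1991 higher and 2142 lower. A stricter call asked that the whole interval lie past 1.2-fold. By it, 0 of the 7 were higher and 3 lower in YA than in control (all genes 6.03% and 4.44%). In OA, 3 were above control and 1 below (9.04% and 9.08%), and against OA, YA had 3 lower (9.03%). FGF5 was among the 3 in each comparison, so the limit set by the filter holds for these counts too. The comparisons share libraries, YA and OA being set against the same control, so they are not independent.

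The genes with the most similar pattern were sought by the distance between pairs of log2 fold changes, YA and OA each against control, which rests on 3 libraries. No protein-coding gene lay within 0.25 log2 units of FGF5, whose place rests on 1 read in YA. With a pseudocount of 5 its log2 value for YA against control moved from -3.35 to -2.00. The lack of neighbors therefore cannot be read as a trait of FGF5. The nearest to it was ITM2A, at a distance of 1.15, with 12 (control), 0 (YA) and 81 (OA) counts, followed by RTL1 (10, 1 and 57 counts). FGFR1 had 44 such neighbors, led by the secreted protease ADAMTS1 (351, 232 and 494 counts), the chondroitin sulfotransferase CHST11 (1217, 828 and 1778) and SLAMF7 (70, 45 and 98). FGFRL1 had 50, led by ARHGAP30 (153, 168 and 287), GADD45B (252, 281 and 467) and PALLD (543, 599 and 985), and FGF1 had 86, led by ADAM12 (241, 144 and 130), SIPA1L2 (990, 580 and 522) and ZNF624 (110, 66 and 58). The patterns of FGF2, FGFR4 and FGFR3 were common, with 3942, 1835 and 1386 genes within that distance. Those nearest to them were TASP1, ASRGL1 and LYSMD4 for FGF2, TPD52, IFI27L2 and SNRNP40 for FGFR4, and PLOD2 and NEDD8 for FGFR3.

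Of the 19 other FGF genes, 13 had at most 3 counts in every library, among them FGF7, FGF10 and the hormone-like FGF19, FGF21 and FGF23. FGF12 and FGF13, which belong to the homologous factors that stay inside the cell and bind sodium channels, passed the filter. FGF12 had 342 (control), 171 (YA) and 167 (OA) counts, and was 1.99-fold lower in YA (interval 1.65 to 2.41) and 1.72-fold lower in OA (1.43 to 2.08). FGF13 had 265, 154 and 312 counts, which put it 1.72-fold lower in YA than in control (1.401 to 2.11), 1.403-fold higher in OA (1.19 to 1.66) and 2.41-fold lower in YA than in OA (1.98 to 2.94). FGF14, under the filter, had 29, 14 and 2 counts, with a ratio of 0.0822 in OA (0.00950 to 0.325). Another gene of that class, FGF11, had 10, 5 and 4 counts and shares 75.0% of its exon bases with AC113189.4. FGF18 had 7, 7 and 1 counts and FGF22 had 7, 6 and 1. Outside the homologous factors, FGF1, FGF2 and FGF5 were the only FGF genes that passed the filter.

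The 123 other genes of the pathway were grouped by role, and 90 of them passed the filter. Set against control, YA had 7 at least 1.2-fold higher and 28 lower and OA had 16 and 29, while YA set against OA had 24 and 22. As shares, 7.78% were higher and 31.1% lower in YA (all genes 17.4% and 16.4%), 17.8% and 32.2% in OA (21.1% and 21.5%), and 26.7% and 24.4% in YA against OA (23.0% and 21.5%). Their median log2 fold changes were -0.09, -0.02 and 0.01, beside -0.02, 0.01 and -0.01 over all genes.

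Proteins that present or bind FGF ligands at the cell surface had the highest share of genes past 1.2-fold in each comparison, among roles with at least 9 genes tested. The stricter call, with the whole interval past 1.2-fold, kept that order only in YA against control. There 2 were higher and 6 lower of 16 genes, beside 1 and 4 of the 16 feedback and target genes. In OA against control these were 3 and 5 beside 4 and 6, and in YA against OA both lists had 6 and 5. Of 21 co-receptor and binding genes, 16 passed the filter, with 2 higher and 8 lower in YA, 4 higher and 8 lower in OA, and 9 higher and 5 lower in YA against OA. In these comparisons 62.5%, 75.0% and 87.5% were past 1.2-fold either way, beside 33.8%, 42.6% and 44.5% of all genes. The glypican GPC4 had 105 (control), 86 (YA) and 7 (OA) counts, 12.6-fold lower in OA than in control (interval 5.90 to 32.1). The syndecan SDC2 had 910, 571 and 194 counts, 1.59-fold lower in YA (1.43 to 1.77) and 3.94-fold lower in OA (3.37 to 4.62), while SDC1 had 1586, 1210 and 2210 and was 2.17-fold lower in YA than in OA (2.02 to 2.33). FGFBP1, a carrier that releases FGF from the matrix, had 346, 208 and 66 counts, 4.40-fold lower in OA (3.37 to 5.82). FGFBP2, a paralog of it, had 95, 41 and 20 counts, 2.31-fold lower in YA (1.59 to 3.42) and 3.99-fold lower in OA (2.44 to 6.82). GPC1 had 1274, 2131 and 1050 counts, 1.68-fold higher in YA than in control (1.56 to 1.80). FLRT1, a transmembrane partner of FGFR1, had 25, 95 and 12 counts, 3.81-fold higher in YA than in control (2.43 to 6.18). FLRT1 passed the filter on a mean of 42.3 that YA carried (23.6, 89.8 and 13.5 normalized counts). GPC5, counted as higher in OA, passed on a mean of 22.8 that OA carried (18.8, 11.3 and 38.2). The calls of FLRT1 in YA and of GPC5 in OA are therefore in part set by the filter. The klotho co-receptors of the hormone-like ligands were scarce, with KL at 0, 0 and 1 counts and KLB at 23, 9 and 11.

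Heparan sulfate chains are built and trimmed by the next role, of which 21 of 29 genes passed the filter. In YA 0 were higher and 9 lower, in OA 4 higher and 7 lower, and in YA against OA 4 higher and 8 lower. The shares past 1.2-fold were 42.9%, 52.4% and 57.1% (all genes 33.8%, 42.6% and 44.5%), and in OA 19.05% were higher, beside 21.1% of all genes. With the whole interval past 1.2-fold, 0 were higher and 1 lower of the 21 in YA (all genes 6.03% and 4.44%). The excess over all genes in YA was therefore not seen under that stricter call. It left 2 higher and 4 lower in OA (9.04% and 9.08%), and 2 higher and 3 lower in YA against OA. Enzymes of the same step differed in direction in OA. HS3ST1, a 3-O-sulfotransferase, had 274, 145 and 77 counts and was 1.88-fold lower in YA (1.54 to 2.32) and 2.99-fold lower in OA (2.31 to 3.90). HS3ST3A1, of the same family, had 429, 350 and 742 counts and was 2.06-fold higher in OA (1.83 to 2.33), and HS3ST3B1 had 67, 43 and 73. SULF2, which removes 6-O-sulfates outside the cell, had 4308, 3850 and 1707 counts, 2.12-fold lower in OA (2.003 to 2.24). EXTL1, a glycosyltransferase, had 1449, 1164 and 718 counts, and XYLT2, which starts the chain, had 1134, 1278 and 1465.

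Of the adaptors and the RAS-ERK cascade, 18 of 24 genes were within 1.2-fold in each comparison, though not the same ones, and 11 were within it in all 3. The 25% past 1.2-fold compare with 33.8%, 42.6% and 44.5% of all genes. In YA 3 were higher and 3 lower, in OA 1 higher and 5 lower, and in YA against OA 4 higher and 2 lower. GAB2, a docking protein, had 1155, 865 and 640 counts, 1.33-fold lower in YA (1.22 to 1.46) and 1.51-fold lower in OA (1.37 to 1.67). The RAS activator SOS2 had 866, 805 and 532 counts and was 1.37-fold lower in OA (1.23 to 1.53). RPS6KA3, an ERK-activated kinase, had 6175, 4876 and 4372 counts, and GRB2 had 3594, 3178 and 3444. FRS2 itself had 820, 852 and 555 counts, a ratio of 1.04 in YA and 0.806 in OA (0.723 to 0.899); FRS2 was named after its values were seen.

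Feedback inhibitors and targets of the pathway, which many other ERK inputs also drive, included 17 genes, of which 16 passed. In YA 1 was higher and 5 lower, in OA 4 higher and 6 lower, and in YA against OA 6 higher and 5 lower. These were 37.5%, 62.5% and 68.75% of the genes tested (all genes 33.8%, 42.6% and 44.5%), and in OA 25% were higher beside 21.1% of all genes. IL17RD, a membrane inhibitor of FGF signaling, had 291 (control), 178 (YA) and 530 (OA) counts, lower in YA (1.63-fold, 1.35 to 1.98) and higher in OA (2.17-fold, 1.88 to 2.51). SPRY4 had 7526, 5431 and 1544 counts (4.09-fold lower in OA, 3.87 to 4.33), SPRY1 had 463, 536 and 152 (2.56-fold lower in OA, 2.12 to 3.09), and the AP-1 subunit FOSL1 had 10048, 9388 and 16531 (1.96-fold higher in OA, 1.91 to 2.01). The phosphatase DUSP5 had 1207, 889 and 763 counts, and the cyclin CCND1 had 14885, 11000 and 14274.

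**Figure D4:**
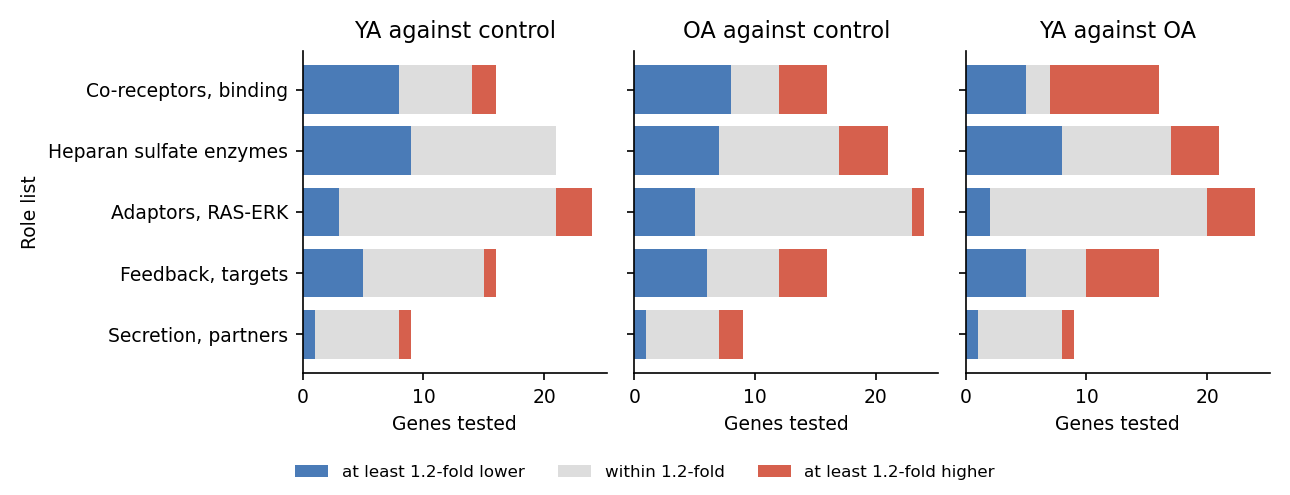
Number of genes at least 1.2-fold lower, within 1.2-fold and at least 1.2-fold higher (horizontal axis) in the 5 role lists with at least 9 genes tested, for the 3 comparisons. The co-receptor and binding list has 8 of 16 genes lower in YA and in OA against control, and the adaptor and RAS-ERK list has 18 of 24 within 1.2-fold in each comparison.

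The machinery that exports FGF1 and FGF2 and their partners inside the cell gave 1 gene higher and 1 lower of 9 in YA, 2 and 1 in OA, and 1 and 1 in YA against OA. These 22.2%, 33.3% and 22.2% past 1.2-fold lay below the 33.8%, 42.6% and 44.5% of all genes. This role was also well counted (lowest mean 83.9, TEC), so the limit given for the adaptors holds here too. S100A13, which takes part in FGF1 export, had 491, 386 and 295 counts and was 1.40-fold lower in OA (1.21 to 1.62). Gene counts do not tell the splice forms of the receptors apart. Of their splicing regulators, ESRP1, which favors the epithelial form of FGFR2, had 1, 3 and 0 counts and ESRP2 had 12, 15 and 20, while PTBP1 (11902, 11623 and 10273 counts) stayed within 1.2-fold in all 3 comparisons and RBFOX2 (3960, 3517 and 2675) was lower in OA at a ratio of 0.805 (0.766 to 0.845). ESRP1 and ESRP2 were under the filter.

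Marker genes were read beside these values. Of 12 melanoma lineage genes, 6 were tested, with 1 higher and 3 lower in YA (all genes 17.4% and 16.4%) and 1 higher and 2 lower in OA than in control (21.1% and 21.5%). MITF had 1221, 764 and 881 counts, S100B 843, 591 and 550, and SOX9 422, 253 and 355, so that all 3 were lower in YA (ratios 0.628, 0.703 and 0.601). The one higher in YA was S100A1, with 19, 30 and 15 counts (ratio 1.58, interval 0.863 to 2.98). NGFR had 3060, 2774 and 1289 counts (0.502 in OA) and AXL 9837, 8832 and 10449 (1.27 in OA). The pigment genes PMEL, TYR, DCT and TYRP1 had at most 10 counts, and MLANA had 22, 18 and 16. SOX10 was listed at 0 in all libraries, and whether annotation or counting bears on that value was not tested. The adipocyte genes ADIPOQ (1, 0 and 0 counts), LEP (0, 0 and 0) and PLIN1 (2, 5 and 2) were at or near 0. Of 12 adipocyte markers, 6 were tested, with 5 higher and 0 lower in YA (all genes 17.4% and 16.4%) and 2 higher and 1 lower in OA (21.1% and 21.5%). Those higher in YA were PLIN4 (284, 579 and 321 counts), CIDEC (6, 31 and 36), LIPE (79, 153 and 67), PPARG (1608, 1964 and 1530) and LPL. PLIN4 and CIDEC were also higher in OA, and the lower one in OA was LPL, with 353, 583 and 30 counts. All 12 adipocyte markers together were at 170, 215 and 169 CPM in control, YA and OA. Of 12 fibroblast markers, 7 were tested, with 4 higher and 1 lower in YA (all genes 17.4% and 16.4%) and 3 higher and 3 lower in OA (21.1% and 21.5%). All 12 together were at 48.5, 66.4 and 84.2 CPM. COL6A3 (145, 302 and 886 counts), DCN (13, 138 and 24) and COL1A1 (75, 117 and 84) were called higher in both, and LUM (66, 101 and 58) in YA. PDGFRA (76, 20 and 51) was called lower in both. In OA the intervals of COL1A1 (0.966 to 1.85) and PDGFRA (0.549 to 1.15) held 1. PDGFRB (515, 568 and 334) and FBLN1 (136, 155 and 49) were lower in OA, and COL1A2 (1, 1 and 2) and COL3A1 (0, 1 and 1) were near 0. The filter bears on some of these marker calls. CIDEC (5.65, 29.3 and 40.4 normalized counts) was carried past it by YA and OA. DCN (12.2, 130 and 26.9) and S100A1 (17.9, 28.4 and 16.8) were carried past it by YA. Their calls as higher in those libraries are therefore in part set by the filter. The part of the marker transcripts in the FGF values was not tested. In bulk RNA, fewer cells that express a gene and less RNA per cell cannot be told apart.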

How the data were processed

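Poly(A) RNA of A375 cells was sequenced as 1 library per group. For 58037 genes the authors deposited whole-number read counts that were not normalized. The submitters' processing notes list STAR 2.5.1b, featureCounts, R 3.6.1 and hg38; the annotation release, the strand setting and filters were not given in the sources used here. Each library's group came from its treatment label, and the count columns matched the sample titles. Counts were divided by DESeq2 1.42.0 size factors (R 4.3.3; 1.06 for control, 1.06 for YA, 0.891 for OA). Genes with a mean normalized count of at least 20 were tested (14413 genes, 99.7% of counts). Calls used log2((a + 1)/(b + 1)) at 1.2-fold, whereas printed ratios hold no pseudocount and carry 95% Clopper-Pearson intervals from the reads of the libraries compared. The reads carry no molecular identifiers and may be copies of 1 molecule, so all intervals cover counting error only. With 1 library per group the DESeq2 test the study names has no residual degrees of freedom, and no test was run. No fold was given where both libraries had at most 3 counts.

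The 8 genes, the pathway lists and the markers were chosen with earlier results of these data known. Besides the 8 genes, the text names other FGF genes with over 3 counts in a library, up to 4 genes per role list and comparison whose interval lay furthest beyond 1.2-fold, and the 3 nearest protein-coding genes per FGF gene tested. Other genes named were chosen after their values were seen. Some genes picked by the naming rule are not reported here. Positions, lengths and overlaps came from GENCODE 29 on GRCh38, which matched 57433 identifiers and may differ from the release behind the counts. Upstream sequences came from RefSeq; the table held 7 of the 8 genes. Alternatives were a pseudocount of 5, scaling by total count or by TMM (edgeR 4.0.16), no filter, a minimum mean of 100, 2-fold, intervals wholly beyond 1.2-fold, and the longest transcript as the length. Python 3.11.15, scipy 1.17.1 and matplotlib 3.10.9 were used, and the procedure was tested on simulated data.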

Additional observations from a re-analysis of the deposited data

How the results depend on the processing

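No paired analysis was possible because each group held 1 library. A pseudocount of 5 and scaling by total count or TMM left every count of FGF, pathway and all genes past 1.2-fold within 1.5 times its value, and no FGF gene called at 1.2-fold changed direction under these 3 settings. The pseudocount of 5 moved FGF5 in YA against OA from -5.14 to -3.61 on the log2 scale. Using the longest transcript moved the levels of FGF1, FGFR1, FGFR4 and FGFRL1 beyond their counting intervals in all 3 libraries. Depth limits FGFR2 and FGF5 most.

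The other settings change which genes are tested or how strict the call is. Pairs of numbers give higher, then lower. Of the 8 FGF genes, no filter gave 1 higher in YA over control and 1 in YA over OA, FGFR2 in both. Of all 32257 genes then tested, 9661 and 10917 were higher. At 2-fold, of 7 FGF genes, 1 was lower in YA over control, OA over control had 2 and 0, and 3 were lower in YA over OA. FGF5 was among these in each comparison. Of all 14413 genes, 140 were lower, 412 and 535 higher and lower, and 438 lower, in that order. Whole intervals past 1.2-fold left 3 lower in YA over OA, FGF5 among them, beside 1301 of all 14413 genes.

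Of the pathway genes, no filter (113 tested) gave 14 higher for YA over control, 44 lower for OA over control and 39 higher for YA over OA. The other settings here had 90 tested. At 2-fold, YA over control had 1 and 1, OA over control 2 and 8, and YA over OA 6 and 6. Whole intervals past 1.2-fold left YA over control with 3 and 15, OA over control with 9 and 19, and YA over OA with 15 higher.

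Of all genes, no filter (32257 tested) gave YA over control 9661 and 9306, OA over control 8340 and 10895, and YA over OA 10917 and 8049. A minimum mean of 100 (11162 tested) gave YA over control 1404 and 1451, OA over control 1947 lower, and YA over OA 1991 higher. The settings that follow had 14413 tested. In the same order, 2-fold gave 310 and 140, 412 and 535, and 639 and 438, and whole intervals past 1.2-fold gave 869 and 640, 1303 and 1308, and 1444 and 1301.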
